A study of Pinus pinaster with 24 samples.

Results

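A set of 200 transcripts with high levels in the developing cortex and low levels in the other 3 sampled regions of the maritime pine (Pinus pinaster) root tip was described across tissues, ammonium supply and experiments. For every one of the 47118 transcripts in the deposited table, the means of log2(value + 1) over the 3 water libraries of each tissue were sorted, and the widest of the gaps between neighbouring means divided high from low tissues. A transcript qualified when the developing cortex alone lay above a gap of at least 1 and each of its 3 cortex water values exceeded the 9 water values of the other tissues. By this rule 909 transcripts qualified, and the 200 with the widest gap were kept. The members were thus selected on their values in the 12 water libraries, which are given as a description only.

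Seedlings 1 month old, from seed of Sierra Segura y Alcaraz, stood in vermiculite and received a nitrogen-free nutrient solution. They were then given 80 mL of 3 mM ammonium chloride or 80 mL of water. Root tips were taken 24 h later, and areas that approximate the developing cortex, root cap, meristem and developing vessels were cut by laser from 30 µm frozen sections. There were 3 ammonium libraries and 3 water libraries for each tissue, 24 in all, and the titles number their experiments 1, 3 and 4. In every trio of values below, the libraries follow in that order. How many seedlings went into a library, and whether the experiments used separate plants, is not stated. The p-values therefore reflect how far these libraries differ, and some of that may be technical.

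The root cortex is the ground tissue between the epidermis and the vascular cylinder. Behind the meristem its young cells enlarge, and the mature tissue is known for storage, for the radial passage of water and ions and, in pines, for housing ectomycorrhizal fungi between its cells. Ammonium enters root cells through ammonium transporters and is assimilated mainly by glutamine synthetase and glutamate synthase. The deposited table gives identifiers without gene names, so the members appear under these identifiers, no role is assigned to them, and the labelled tissues could not be set against marker genes.

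The deposited value of a transcript is its reads divided by a scaled library size. The depth recovered from these values lay between 67135000 and 88269000 reads, and 3 reads corresponded to a value of 0.0309 to 0.0493. Such a floor covers counting error only, because the RNA was amplified and reads are not single molecules. Over the 46918 transcripts that are not members, 3 ammonium libraries were closer to the water mean of another tissue than to that of their own (Pearson's r of log2 values across transcripts, which are not independent). The meristem ammonium library of experiment 3 had r = 0.949 with cortex water and 0.859 with meristem water. The meristem ammonium library of experiment 4 had r = 0.900 with root cap water and 0.884 with meristem water. The cortex ammonium library of experiment 1 had r = 0.948 with root cap water and 0.929 with cortex water. The cortex ammonium library of experiment 4 had r = 0.936 with root cap water and 0.947 with cortex water, and that of experiment 3 had 0.806 and 0.887. The main counts and medians over the set that rest on these libraries are also given without them, a choice made after their values were seen, and values of single transcripts are given for every library.

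The members took a visible share of the cortex libraries. Their mean log2(value + 1) was 5.06, 6.76 and 5.18 in the cortex ammonium libraries and 6.42, 6.33 and 5.50 in the cortex water libraries. In the root cap it was 2.97, 2.84 and 1.91 with ammonium and 1.59, 1.63 and 3.61 with water. The 6 cortex libraries were thus the highest of the 24, and the root cap water library of experiment 4 stood above the other root cap libraries. In the meristem the mean was 2.03, 4.90 and 0.83 with ammonium and 1.75, 1.32 and 3.18 with water. In the vessels it was 2.05, 3.16 and 2.06 with ammonium and 2.84, 2.46 and 1.64 with water. The meristem ammonium library of experiment 3, at 4.90, lay next to the lowest cortex library, at 5.06, and the meristem ammonium library of experiment 4, at 0.83, was the lowest of all.

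**Figure D1:**
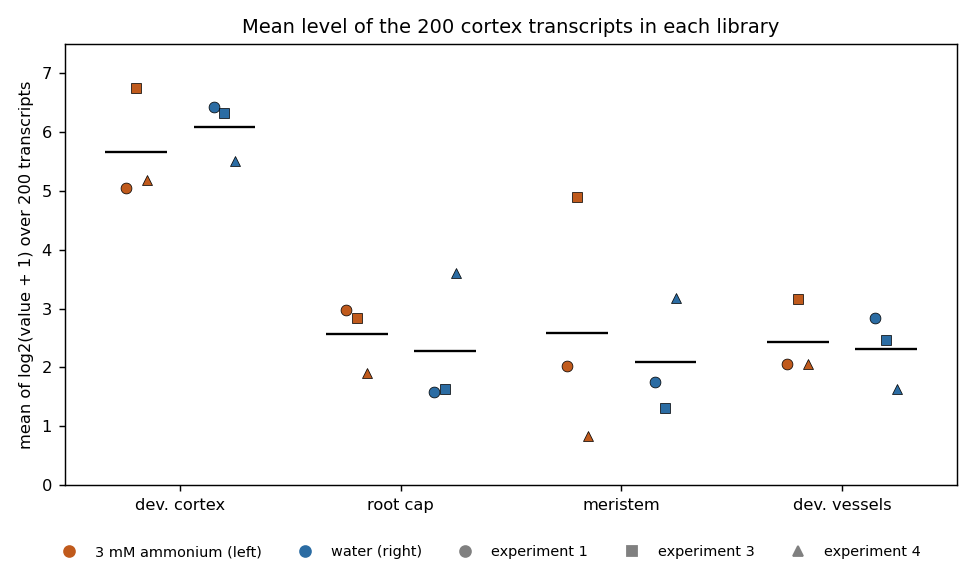
Mean of log2(value + 1) over the 200 transcripts (y axis) in each of 24 libraries, by tissue (x axis), with ammonium left and water right in each tissue; symbols mark experiments and bars are means of 3 libraries. The cortex libraries lie between 5.06 and 6.76, and the meristem ammonium library of experiment 3 reaches 4.90.

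As a share of the deposited signal, the 200 transcripts made up 1.65%, 6.43% and 1.79% in the cortex ammonium libraries and 4.13%, 3.99% and 2.40% in the cortex water libraries. Outside the cortex the share was 0.0884% to 2.37% with ammonium and 0.102% to 0.806% with water. The value of 2.37% belonged to the meristem ammonium library of experiment 3, and the next highest share with ammonium was 0.728%, in the root cap. In these bulk samples fewer cells of a type and less RNA per cell cannot be told apart.

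Levels within the set spanned a wide range. The mean cortex value per transcript ran from 2.01 to 2725 with ammonium (median 61.6) and from 5.38 to 2261 with water (median 58.9). With ammonium 72 transcripts averaged at least 100 in the cortex and 20 averaged under 10, against 80 and 7 with water. Most members were detected outside the cortex too: 41 were listed at 0 in at least 1 of the 18 other libraries, and no member was listed at 0 in more than 7 of them. All 200 passed the filter for testing (at least 3 libraries with a value of 1 or more), which their cortex water values favour, and 199 would also have passed on the ammonium libraries alone.

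**Figure D2:**
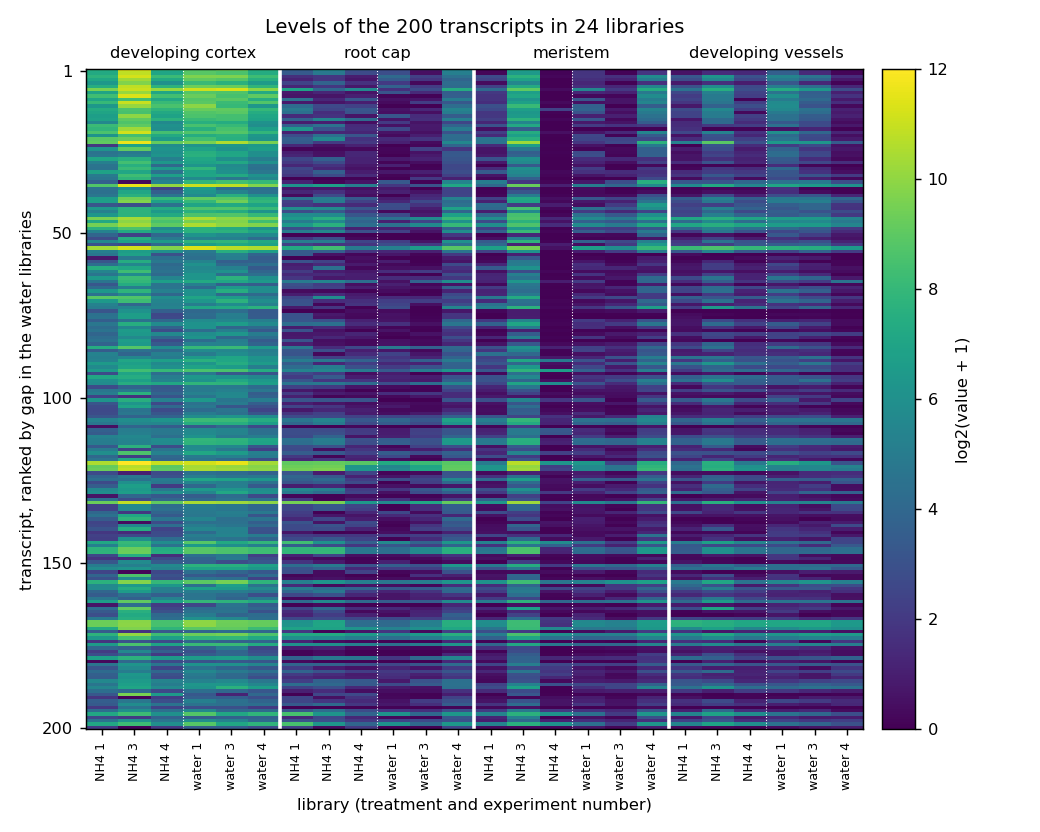
log2(value + 1) of the 200 transcripts (rows, ranked by gap in water) in 24 libraries (columns, by tissue, ammonium before water, with the experiment number). The 6 cortex columns are brighter than the others in most rows, the meristem ammonium column of experiment 3 is the brightest outside the cortex, and the cortex ammonium column of experiment 3 holds both the brightest rows and some dark ones.

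The widest gap in water belonged to pp_184596. It held 186, 2803 and 206 in the cortex ammonium libraries and 463, 605 and 203 in the cortex water libraries. Outside the cortex it ranged over 0.0371 to 144 with ammonium and 0 to 41.6 with water. With ammonium its lowest cortex value exceeded the other 9 values, the highest of which was in the meristem library of experiment 3. The remaining trios were 11.5, 49.1 and 8.06 in the root cap, 0.0371, 144 and 0.102 in the meristem and 0.645, 1.29 and 1.22 in the vessels. By mean log2 value the root cap was its second tissue and the vessels were the lowest.

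Transcript pp_128740 had another order of tissues outside the cortex. It held 143, 1232 and 155 in cortex with ammonium and 542, 447 and 186 with water. Its other ammonium values were 1.28, 2.57 and 0.651 in the root cap, 4.09, 118 and 0.0254 in the meristem and 5.89, 43.8 and 4.88 in the vessels, so that by mean log2 value the vessels came second and the root cap last. The vessels also came second in pp_128731, which had 106, 984 and 120.3 in cortex ammonium and 388, 340.3 and 136 in cortex water libraries. In pp_128737, whose number lies between those 2, the root cap came second. It held 84.2, 834 and 66.4 in cortex with ammonium and 277, 199 and 94.4 with water, and with ammonium 4.30, 13.0 and 2.25 in the root cap and 0.745, 2.08 and 0.895 in the vessels. Transcript pp_184592, named after its values were seen, had r = 0.999 with pp_128740 over the 24 libraries (log2 scale) and a ratio of 1.10 to 1.95 to it in the 21 libraries where both reached 1. Transcripts this alike may share reads, and their separate values are uncertain to that extent.

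Transcripts pp_245636 and pp_245632 had the largest cortex excess with ammonium. The first held 319.5, 2679.8 and 329.9 in cortex ammonium libraries and 602, 359 and 526 in cortex water libraries. In the root cap it held 0.601, 0.584 and 1.07 with ammonium and 0.115, 0.0719 and 11.4 with water. Its root cap values were low in 5 of 6 libraries, the exception being the water library of experiment 4. In the meristem it held 2.48, 138 and 0 with ammonium and 0.209, 0.152 and 56.1 with water, and in the vessels 3.45, 29.9 and 3.74 with ammonium and 62.4, 12.2 and 2.44 with water. Its cortex mean with ammonium exceeded that of the next tissue, the vessels, by 6.25 on the log2 scale. The corresponding differences to the next tissue were 6.13 for pp_245632, also against the vessels, and 6.04 for pp_137315, against the meristem. Transcript pp_137315 had a cortex trio of 390.2, 2351 and 336 with ammonium and 414, 445 and 238 with water.

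Transcript pp_72909 was among the most abundant of the leading members. It held 772, 2119 and 1141 in cortex ammonium libraries and 2139, 2438 and 972 in cortex water libraries, and its ammonium and water values overlapped. Its values outside the cortex ranged over 0.266 to 526 with ammonium and 2.18 to 168 with water. Transcripts pp_65918, pp_161904 and pp_72915 were less abundant, with cortex means of 204 ± 109, 257 ± 114 and 280.2 ± 209 with ammonium (SD, n = 3 each) and 368 ± 168, 457 ± 178 and 242 ± 106 with water. The libraries were less even for pp_205775 and pp_145245. The first held 81.9, 1109 and 380.5 in cortex with ammonium and 963, 262 and 77.0 with water, and the second 285, 513 and 66.9 with ammonium and 367, 259 and 59.6 with water. In pp_205775 the meristem ammonium library of experiment 3, at 267, exceeded the cortex ammonium library of experiment 1, so its tissues overlapped with ammonium. That meristem library also exceeded the lowest cortex ammonium value in pp_145245, at 149 against 66.9, and in pp_72915, at 218 against 115.

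The highest cortex water means belonged to pp_72907 and pp_211420. Transcript pp_72907 held 1493, 4639.8 and 2043 in cortex with ammonium and 2331, 3143 and 1308 with water, and by mean log2(value + 1) it was also the highest member with ammonium in the root cap (mean value 524 ± 46.0, SD, n = 3) and in the meristem (589 ± 928). Transcript pp_211420 held 1279.6, 2352 and 849 in cortex with ammonium and 2654, 1719 and 1456 with water, and by mean log2(value + 1) was the highest member with ammonium in the vessels (mean value 310.1 ± 65.5). Outside the cortex, pp_72907 ranged over 15.2 to 1659.98 with ammonium and 4.67 to 465 with water, and pp_211420 over 0.431 to 698 with ammonium and 37.0 to 471 with water. At the edge of the set, the last transcripts kept were pp_66035 and pp_198382, each with a gap of 2.42, and the first left out were pp_145243 and pp_206521, with gaps of 2.42 and 2.41. Transcript pp_66035 held 144, 299 and 60.2 in cortex with ammonium and 449, 143 and 225 with water, and pp_145243 held 179, 133 and 7.46 with ammonium and 13.5, 9.98 and 9.29 with water.

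**Figure D3:**
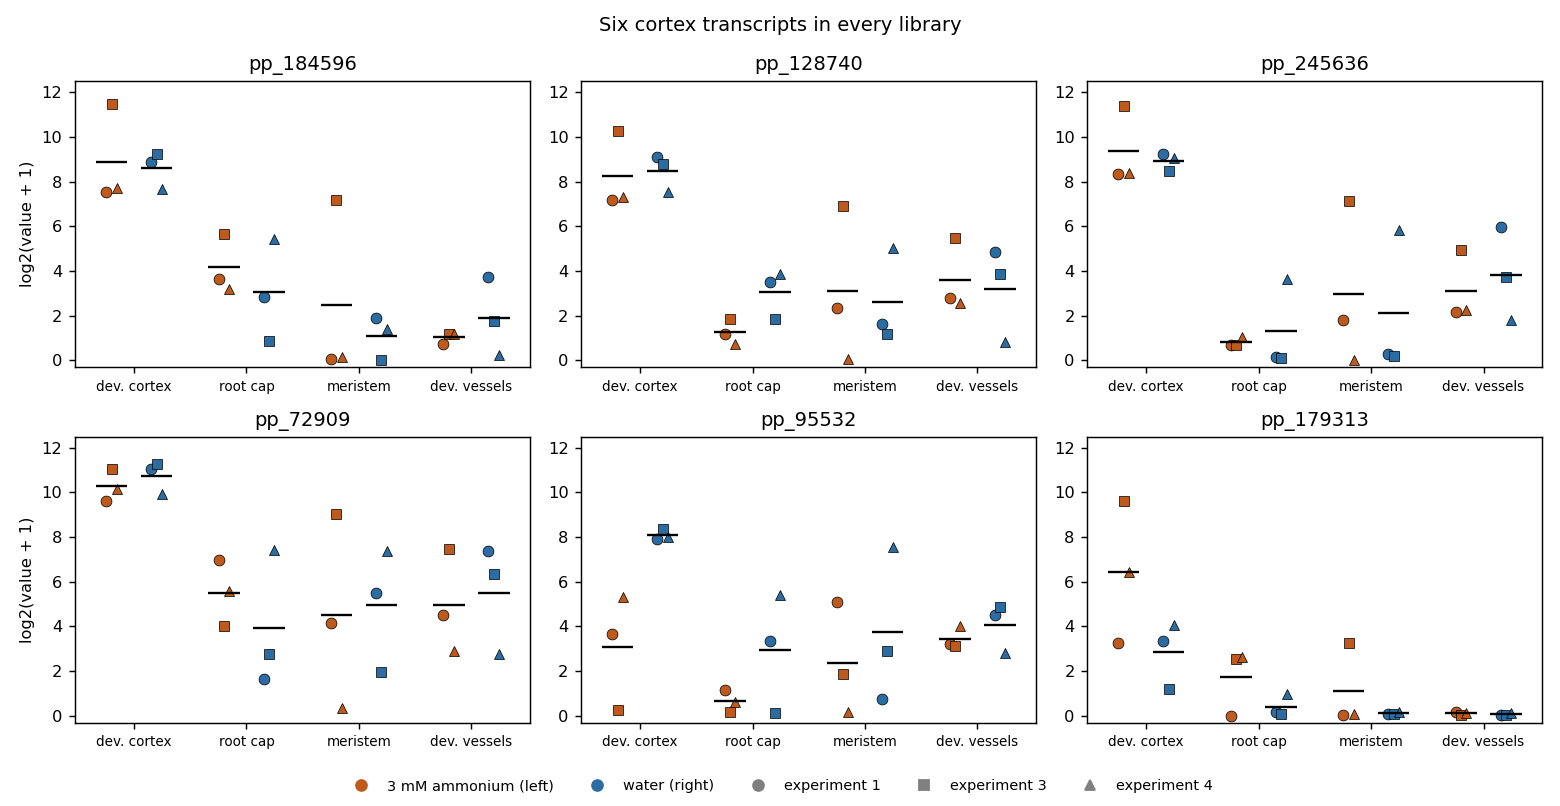
log2(value + 1) (y axis) of pp_184596, pp_128740, pp_245636, pp_72909, pp_95532 and pp_179313 in every library, by tissue (x axis), ammonium left and water right; symbols mark experiments and bars are means of 3 libraries. In pp_95532 the 3 cortex ammonium points lie below the 3 water points, and in pp_179313 the ammonium libraries of experiments 3 and 4 lie above them.

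The 12 ammonium libraries took no part in choosing the members and show whether the cortex excess was present in them. In these libraries 194 of the 200 members had their highest tissue mean in the cortex, and 178 exceeded the next tissue by at least 1 on the log2 scale, against 23.8% and 2.10% of the 46960 transcripts tested. The median difference between cortex and the highest other tissue was 2.19 over the members, with quartiles of 1.46 and 3.56, and -0.35 over all transcripts tested. In 59 members the lowest cortex ammonium value exceeded all 9 ammonium values of the other tissues, against 1.69% of transcripts tested. Leaving aside the meristem library of experiment 3, the number was 132, against 2.35%. With the meristem ammonium libraries of experiments 3 and 4 left out, 190 members had their highest mean in the cortex and 173 exceeded the next tissue by at least 1, against 22.9% and 2.16%, and the median was 2.35, with quartiles of 1.46 and 3.54. Without these and the cortex ammonium library of experiment 1, the numbers were 190 and 174, against 27.1% and 2.93%, and the median was 2.59, with quartiles of 1.73 and 4.08. Leaving out any 1 ammonium library gave 186 to 199 members with the highest mean in the cortex and medians of 1.73 to 2.60.

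Tested against each other tissue alone, the cortex was higher than the vessels in 93 members, than the meristem in 17 and than the root cap in 0 (limma, Benjamini-Hochberg adjusted p under 0.05 over 46960 transcripts). The corresponding shares of all transcripts tested were 8.12%, 1.36% and 0%. These fits did not block by experiment number. With such a block more members were called against the vessels and against the meristem, as given in the section on processing. The cortex was called lower in 0 members in each, against 9.48%, 0.0937% and 0% of transcripts tested. The median log2 differences were 3.21 against the vessels, 3.02 against the meristem and 3.01 against the root cap, and -0.09, -0.05 and -0.02 over all transcripts tested. All 3 cortex libraries lay above all 3 of the vessels in 169 members, of the root cap in 155 and of the meristem in 71, against 18.5%, 7.16% and 10.7% of transcripts tested. For the meristem the number was 180 without its ammonium library of experiment 3, against 20.9%, and 185 without those of experiments 3 and 4, against 37.8%.

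No member was called higher in the cortex than in all 3 other tissues at once with differences of at least 1, and 0% of all transcripts were so called. At an unadjusted p under 0.05 in each comparison there were 107 members, against 0.888% of transcripts, and against the root cap alone 141, against 2.93%. The lowest adjusted p against the root cap was 0.109 over the members and over all transcripts. The criterion of all 3 tissues was met by 0 members in edgeR's quasi-likelihood test and 25 in DESeq2, both on recovered reads, and the root cap comparison by 0 and 49. Members reached the criterion of all 3 tissues when the meristem ammonium library of experiment 3 (13), the cortex ammonium library of experiment 3 (3) or that of experiment 4 (1) was left out, and for the root cap comparison these counts were also 13, 3 and 1. Without both meristem ammonium libraries of experiments 3 and 4 the criterion was met by 3 members, and without these and the cortex ammonium library of experiment 1 by 4. For DESeq2 and for the fits with libraries left out, the share of all transcripts called is not given here. These counts are therefore not read as a result about the members.

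The counts for single tissues also rested on few libraries. Against the meristem, 127 members were called without the meristem ammonium library of experiment 3, against 1 and 5 without those of experiments 1 and 4. It was 10 without the root cap ammonium library of experiment 3 or that of experiment 4. It was 5, 7 and 9 without each vessel library in turn, and 5 and 11 without the cortex libraries of experiments 1 and 3. Against the vessels, 33 and 41 were called without the vessel libraries of experiments 1 and 4, and 45 and 57 without the cortex libraries of experiments 3 and 4. In edgeR's quasi-likelihood test the meristem comparison gave 0 and the vessel comparison 40. The shares of all transcripts called in these settings are not given here. The counts therefore show only how the calls moved with the libraries and the test.

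**Figure D4:**
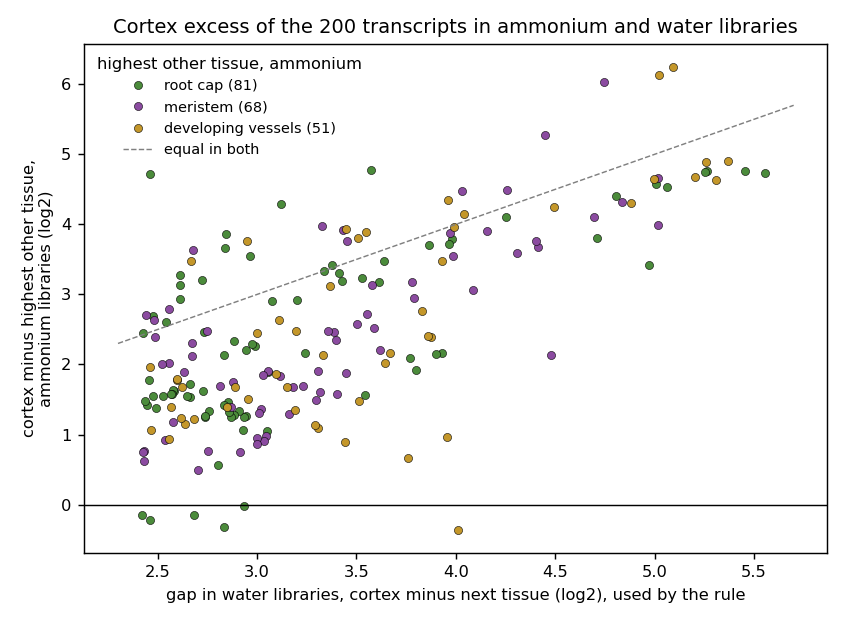
Cortex mean minus the highest other tissue mean in the ammonium libraries (y axis, log2) against the gap in the water libraries that chose the members (x axis, log2), 1 point per transcript, coloured by the highest other tissue with ammonium. Of 200 points, 194 lie above 0, and the dashed line marks equal differences.

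Members with a wider gap in water had a larger excess with ammonium. The 35 with a gap of at least 4 had a median ammonium difference of 4.48, the 79 between 3 and 4 had 2.40, and the 86 below 3 had 1.58. The highest tissue other than the cortex was the root cap for 81 members, the meristem for 68 and the vessels for 51 with ammonium, against 88, 30 and 82 with water. Without regard to tissue means, the highest of the 9 other ammonium values was that of the meristem library of experiment 3 in 148 members. The lowest was that of the meristem library of experiment 4 in 134. How often these libraries were highest or lowest over all transcripts was not counted, so these counts are not shown to be particular to the members.

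Within single experiments the cortex excess was present in each. The cortex ammonium library exceeded the other 3 ammonium libraries of its experiment in 171 members in experiment 1, 171 in experiment 3 and 198 in experiment 4, against 15.8%, 30.4% and 22.5% of all transcripts in the table. The median excess was 1.51, 1.64 and 2.56 on the log2 scale, and -0.55, -0.39 and -0.39 over the table. The nearest library differed by experiment: with ammonium it was the root cap for 112 members in experiment 1, the meristem for 170 in experiment 3 and the vessels for 103 in experiment 4. Without the meristem library, the cortex library was the highest in 192 members in experiment 3 and 200 in experiment 4, against 33.1% and 27.1% of transcripts tested, with a median excess of 2.74 and 2.62. In water, where the rule set the direction, the median excess was 3.45, 3.43 and 1.56 in experiments 1, 3 and 4.

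The 6 members without the highest ammonium mean in the cortex were pp_95532, pp_57442, pp_234494, pp_198373, pp_198375 and pp_198382. Their deficits were small, at -0.36 to -0.02 on the log2 scale. Transcript pp_234494 held 4.46, 0.263 and 5.92 in cortex with ammonium and 20.0, 21.5 and 11.0 with water, and in the root cap 7.76, 0.557 and 5.75 with ammonium and 0.103, 0.503 and 8.40 with water. Its cortex and root cap values overlapped with ammonium. The cortex trios of pp_198375 were 2.64, 0.115 and 3.57 with ammonium and 11.5, 10.9 and 6.49 with water, and those of pp_198382 were 3.08, 0.0987 and 2.86 with ammonium and 10.4, 10.1 and 6.02 with water. In all 3 transcripts the lowest cortex ammonium value was that of experiment 3, and these transcripts and pp_198373 had r of at least 0.99 with each other over the 24 libraries. The sign of the smallest difference turned for pp_95532, pp_234494, pp_198375 and pp_198382 without the cortex ammonium library of experiment 3, to 1.05, 0.44, 0.41 and 0.47.

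Ammonium and water were then compared within the cortex. The water libraries of this comparison also chose the members for high values, which favours lower values with ammonium, so the counts describe the set and support no statement about ammonium. No member passed the threshold in limma (18 at an unadjusted p under 0.05, 0 in edgeR's quasi-likelihood test and 0 in DESeq2), and 0.268% of all transcripts tested did (0.192% higher and 0.0767% lower), with 10.7% at an unadjusted p under 0.05. The median difference was -0.35 over the members, with quartiles of -0.78 and 0.19, and -0.03 over all transcripts tested. It was above 0 in 64 members, against 46.9% of transcripts tested. The median moved to 0.03 without the cortex ammonium library of experiment 1, with 105 members above 0, to -0.97 without that of experiment 3, with 15 above 0, and to -0.07 without that of experiment 4. Without the cortex water libraries of experiments 1, 3 and 4 it was -0.20, -0.23 and -0.64. In 33 members all ammonium values lay below all water values, against 9.24% of transcripts tested, and in 0 members above, against 6.37%. Without the cortex ammonium library of experiment 3, ammonium lay below all water values in 81 members, against 20% of transcripts tested. The number called was 5 with pseudocount 4, 12 with library weights, 1 without the cortex ammonium library of experiment 1 and the meristem ammonium libraries of experiments 3 and 4, 2 without the meristem water library of experiment 4 and 3 without the cortex ammonium library of experiment 4. The share of 0.268% belongs to the main fit, and the shares in these other settings are not given here.

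**Figure D5:**
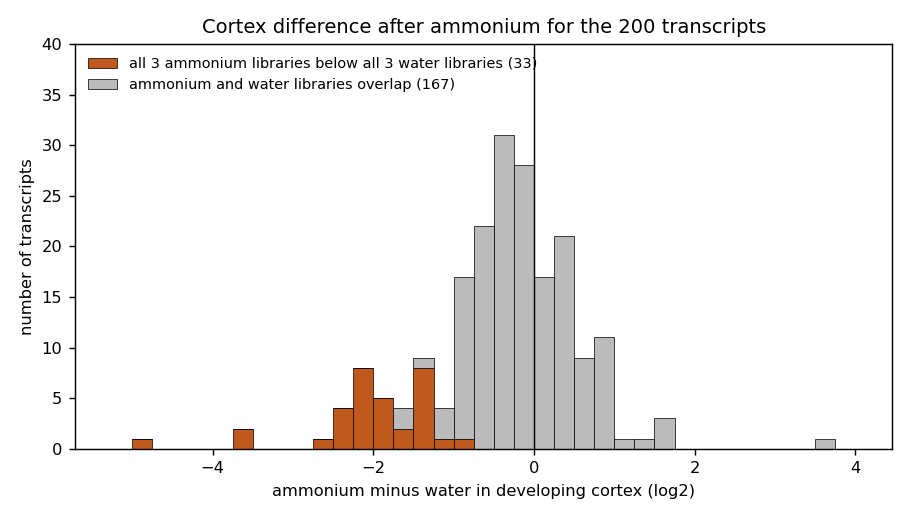
Number of transcripts (y axis) by ammonium minus water difference in the cortex (x axis, log2) for the 200 transcripts; orange marks the 33 whose 3 ammonium values all lay below the 3 water values. The widest differences are -4.99 on the left and 3.57 on the right.

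The widest difference towards lower values was in pp_95532. This transcript held 11.8, 0.214 and 39.3 in cortex ammonium libraries and 239.6, 325 and 254 in cortex water libraries, which gave -4.99 (SE 1.55) on the log2 scale and did not pass the threshold (limma adjusted p = 0.210, 0.0684 to 0.465 over its alternatives). In the meristem it held 32.9, 2.62 and 0.127 with ammonium and 0.683, 6.43 and 190.2 with water, and in the vessels 8.19, 7.85 and 15.2 with ammonium and 22.1, 28.5 and 6.01 with water. In the root cap it held 1.23, 0.136 and 0.549 with ammonium and 9.23, 0.0863 and 41.5 with water. These root cap values overlapped, and their log2 difference of -2.30 (SE 1.55) was the lowest in that tissue among the members. Its neighbour pp_95533, named after its values were seen, had a difference of -3.63. The nearby pp_95526 held 8.37, 6.22 and 21.4 in cortex with ammonium and 128, 158 and 122 with water, and its difference was -3.57 (SE 1.10), also short of the threshold (limma adjusted p = 0.207, 0.0455 with library weights to 0.457). In both, the cortex ammonium libraries did not overlap the water libraries, and the library of experiment 3 was the lowest.

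The widest differences towards higher values were in pp_179313 and pp_137311. The first held 8.64, 777 and 86.6 in cortex with ammonium and 9.03, 1.32 and 15.7 with water, and its log2 difference was 3.57 (SE 1.14), with a limma adjusted p of 0.216 (0.0131 with library weights to 0.615). It passed the threshold, at a limma adjusted p = 0.0253, also without the cortex ammonium library of experiment 1 and the meristem ammonium libraries of experiments 3 and 4. The second held 14.0, 402 and 7.12 with ammonium and 9.57, 7.56 and 18.2 with water, 1.61 (SE 1.14) with adjusted p = 0.676 (0.366 to 0.969). Ammonium and water libraries overlapped in both. For pp_137311 the difference was -0.12 without the cortex ammonium library of experiment 3.

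The cortex ammonium library of experiment 3 was the highest of the 3 cortex ammonium libraries in 165 members and the lowest in 21. In water the library of experiment 4 was the lowest of the 3 in 154 members. The same counts were not made over all transcripts, so they are not shown to be particular to the members. In the 165, the mean log2(value + 1) was 5.29, 7.52 and 5.40 in the cortex ammonium libraries and 6.60, 6.46 and 5.63 in the cortex water libraries. In the 21, which came from 16 runs of consecutive identifiers, it was 3.35, 1.87 and 3.71 with ammonium and 4.89, 5.10 and 4.43 with water. Of the 33 members whose ammonium values lay below all water values, 15 were among these 21 and 10 among the 165. Within the cortex the SD of log2 values had a median of 1.19 with ammonium and 0.66 with water over the members, and 0.39 and 0.26 over all transcripts tested.

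In the other tissues the rule chose the members for low values in water, which favours higher values with ammonium. No member passed the threshold in limma in the root cap, meristem or vessels, against 0.00639%, 0% and 0.00213% of all transcripts tested. At an unadjusted p under 0.05 there were 0, 5 and 6 members, against 3.41%, 12% and 3.21%. In edgeR's quasi-likelihood test 0 were called in each, and in DESeq2 1, 3 and 0. In the meristem 5 were called without its ammonium library of experiment 1. The shares of all transcripts called in DESeq2 and in that fit are not given here. The median differences were 0.36 in the root cap, 0.52 in the meristem and 0.01 in the vessels, and -0.01, 0.01 and -0.01 over all transcripts tested. They were above 0 in 129, 160 and 100 members, against 48.6%, 51.5% and 48% of transcripts tested. In the meristem the median turned to -0.55, with 25 members above 0, without its ammonium library of experiment 3, and to -0.20, with 68 above 0, without those of experiments 3 and 4. In the root cap it ranged from -0.02 without the water library of experiment 1 to 0.97 without that of experiment 4, and in the vessels from -0.25 without the ammonium library of experiment 3 to 0.32 without the water library of experiment 1. Ammonium libraries lay above all water libraries in 2 members in the root cap, 0 in the meristem and 17 in the vessels, against 6.03%, 4.38% and 4.44%. They lay below them in 5, 0 and 6, against 6.65%, 6.01% and 4.25%. The ammonium difference in the cortex was also set against that of the root cap, meristem and vessels in limma. No member passed the threshold in these interaction tests, and 0% of transcripts did. At an unadjusted p under 0.05 there were 9, 8 and 2 members, against 2.23%, 5.13% and 3.53%. These tests include water values that the rule chose to be high in the cortex and low elsewhere. Both choices favour a lower difference in the cortex, so the counts are a description only.

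Of the members, pp_128247 had the largest positive difference after ammonium in the root cap. It held 8.06, 8.27 and 7.67 in root cap ammonium libraries and 0, 0 and 7.58 in root cap water libraries, 2.14 (SE 1.04) on the log2 scale, with limma adjusted p = 1. The 3 ammonium values were even, while the water library of experiment 4 was at a similar level and the other 2 were listed at 0. In the meristem the largest positive one was in pp_240067, with 8.85, 224 and 102 with ammonium and 12.4, 2.38 and 34.1 with water, which differed by 2.39 (SE 1.04) on the log2 scale with a limma adjusted p = 0.395. The libraries of experiments 3 and 4, which resembled other tissues, held the 2 high values. In the vessels it was pp_104586, with 6.16, 134 and 4.02 with ammonium and 2.06, 3.18 and 0.726 with water, which differed by 2.59 (SE 1.52) on the log2 scale with a limma adjusted p = 1. Its cortex trio was 18.9, 560.5 and 4.74 with ammonium and 17.7, 20.8 and 14.6 with water. In the meristem it held 1.57, 105 and 0.673 with ammonium, against 0.878 to 4.84 with water. The ammonium library of experiment 3 held the highest of the 6 values of pp_104586 in each tissue.

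The members were not spread singly over the identifiers. They formed 112 runs of consecutive identifier numbers, of which 65 held 1 member and the largest held 8. Pairs within a run had a median r of 0.982 over the 24 libraries (173 pairs) and pairs in different runs 0.790 (19727 pairs), where the shared contrast of cortex and other tissues raises both. Over the 6 cortex libraries alone the medians were 0.982 and 0.542. Members were linked into groups through pairs with r of at least 0.99, so that other pairs in a group can be less alike. Of these groups 25 joined members of more than 1 run and held 88 members. Counts over the 200 transcripts are therefore not counts of independent values.

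Runs of at least 5 members, of which there were 5 and which were picked out after their values were seen, differed in pattern. The run of 8 from pp_184589 to pp_184596 had a mean log2(value + 1) of 6.47, 9.57 and 6.24 in cortex ammonium libraries and 8.26, 7.85 and 6.69 in cortex water libraries. The 6 members from pp_94775 to pp_94780 had 4.73, 7.33 and 5.95 with ammonium and 6.68, 6.80 and 5.82 with water. In both runs the ammonium library of experiment 3 was the highest of the 6 cortex libraries. The 5 members from pp_137305 to pp_137309 had 5.20, 7.38 and 3.33 in cortex with ammonium and 4.87, 5.79 and 4.10 with water. In the vessels their mean stayed between 0.06 and 0.64 with ammonium and between 0.07 and 0.45 with water. In the meristem it was 0.12, 1.51 and 0.03 with ammonium and 0.03, 0.04 and 0.08 with water, so these members were low in both tissues.

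The other large runs are given with their values in the meristem and root cap. The 6 members from pp_196232 to pp_196237 had a mean log2(value + 1) of 4.92, 5.29 and 5.66 in cortex ammonium libraries and 7.69, 7.60 and 6.89 in cortex water libraries. In the meristem they had 4.76, 7.43 and 1.21 with ammonium and 4.19, 3.94 and 5.21 with water, and in the root cap 4.27, 4.94 and 2.87 with ammonium and 3.53, 2.94 and 6.36 with water. The 7 members from pp_161295 to pp_161301 had 4.78, 6.06 and 5.60 in cortex with ammonium and 7.04, 7.00 and 6.41 with water, and in the meristem 2.90, 6.90 and 0.14 with ammonium and 3.15, 2.09 and 4.37 with water. In the root cap these 7 had 4.39, 4.27 and 2.11 with ammonium and 1.68, 0.55 and 5.24 with water. In both runs the meristem ammonium library of experiment 3 exceeded all 3 cortex ammonium libraries, and the cortex ammonium means lay below the cortex water means. That meristem library was also high in the run of 8, at 5.79, below all 3 cortex ammonium libraries. In the run from pp_94775 it was at 5.07, above the cortex ammonium library of experiment 1, at 4.73, and below those of experiments 3 and 4.

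Transcripts with a number next to a member's were also often high in the cortex. The table held 135 such neighbours that were not members, and 43 of them satisfied the rule with a smaller gap. In the ammonium libraries 87 of the 135 (64.4%) had their highest tissue mean in the cortex, against 23.7% of all transcripts in the table. The median difference to the next tissue was 0.32 in the neighbours and -0.36 over the table.

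Lists made by the same rule for the other tissues are given beside the cortex list, and the differences between lists were not tested. In the ammonium libraries the 200 cortex members exceeded the next tissue by a median of 2.19, the 200 transcripts high only in the root cap by 1.61, the 200 of the vessels by 4.19 and the 200 of the meristem by 0.495. Their median gaps in water were 3.11, 3.21, 4.02 and 1.29. Complete separation of the listed tissue from the other 9 ammonium libraries was seen in 59 cortex, 36 root cap, 198 vessel and 2 meristem transcripts, against 1.69%, 0.830%, 7.88% and 0.427% of all transcripts in the table for the same tissue. For the lists other than the cortex list, these values were not computed without the ammonium libraries closest to another tissue. In the meristem ammonium libraries the meristem list had a mean log2(value + 1) of 4.27, 2.34 and 3.25. The libraries of experiments 3 and 4 there resembled other tissues. The meristem values of 0.495 and 2 therefore do not show how far that list kept its pattern with ammonium. In the cortex libraries, the root cap list had a mean log2(value + 1) of 4.69, 3.21 and 3.01 with ammonium and 1.91, 2.25 and 1.48 with water, and its part in the lower cortex values of the members in experiments 1 and 4 was not tested.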

How the data were processed

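Levels came from 24 libraries of 4 microdissected tissues. The authors deposited 1 signal value for every transcript in each library. The values themselves show it to be a read count over a library size rescaled by the authors, with column sums of 793680 to 1210367. The tools bcl2fastq and BWA are named, per the submitters' processing notes, without version. The sources used here do not give the counting program, reference transcripts or scaling. Dividing by the value of 1 read made 100% of values whole (tolerance 0.01 reads) in all libraries, so reads could be recovered.

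Values were analysed as log2(value + 1), which understates fold changes at low levels. The filter required 3 libraries with a value of 1 or more, which left 46960 transcripts and removed 158. Cortex was compared with each other tissue by limma (empirical Bayes with trend) in the 12 ammonium libraries, and ammonium with water in a limma model of 8 groups over all 24 libraries. Adjusted p is by Benjamini-Hochberg over all transcripts tested, with a threshold of 0.05. The design had been planned for CPM, and its log-scale test was kept for the scaled signal found. Correlations across transcripts or libraries are Pearson's r, given as a description.

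The members, lists and alternatives were chosen with earlier results of these data known. Named members were the 12 with the widest gap, the 3 with the largest and 3 with the smallest cortex excess with ammonium, the 2 largest differences in each direction in the cortex after ammonium, the 2 with the highest cortex water mean, the 2 on either side of the limit of 200, and, for each other tissue, the largest positive difference after ammonium and the highest ammonium mean, with 1 member per run of consecutive identifiers. The steps were tested on simulated reads with changes of known size. These reads held no effect of experiment and no library resembling another tissue, so they do not show how the steps behave on such libraries. Tools were R 4.3.3, limma 3.58.1, edgeR 4.0.16, DESeq2 1.42.0 and matplotlib 3.10.9.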

Additional observations from a re-analysis of the deposited data

How the results depend on the processing

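The count of members higher in the cortex than in all 3 other tissues with ammonium (0) stayed 0 with pseudocounts 0.1 and 4, no filter, both other scalings, edgeR and a replicate block. It was 7 with library weights, 16 with all 24 libraries in the fit (which brings in the water libraries that chose the members), 25 with DESeq2, 3 with meristem ammonium libraries 3 and 4 left out and 4 with cortex ammonium library 1 left out too (numbers are experiments), and 0 to 13 without 1 library. For the root cap comparison (0) the same settings gave 29, 18, 49, 3 and 4, and 0 to 13. For the meristem comparison (17) they gave 9, 95, 46, 67 and 82, with 7 at pseudocount 4, 0 in edgeR, 81 with a replicate block and 1 to 127 without 1 library. For the vessel comparison (93) they gave 151 with library weights, 40 in edgeR, 142 with a replicate block, 149 without the 2 meristem libraries and 33 to 131 without 1 library. In settings added after seeing the data, leaving out the cortex and meristem ammonium libraries of experiment 3 gave 11, 12 and 93 for all tissues, root cap and meristem, and edgeR with a replicate block gave 11 for the meristem. With quantile normalization the median over all transcripts was -0.14 for cortex minus meristem and -0.11 for cortex minus vessels, against -0.05 and -0.09 as deposited. Values under 0.0493 can rest on fewer than 3 reads. The cause of these moves was not tested. Shares of all transcripts called in each setting are not given here, so the counts describe dependence on the processing only.

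In the cortex, 0 members were called after ammonium, 5 with pseudocount 4, 12 with library weights (11 lower), 1 without the 3 ammonium libraries closest to another tissue, 1 when members were chosen with pseudocount 0.1 (152 of 200 shared), and 0 to 3 without 1 library. DESeq2, fitted on all libraries only, called 1 member in the root cap and 3 in the meristem. In limma without 1 library, 0 were called in the root cap and 0 to 5 in the meristem. The vessels stayed at 0. The replicate block changed no count of ammonium calls. These counts, too, stand without the share of all transcripts called in the same setting. The labels do not say what an experiment number marks, and the main fits did not treat the samples as paired. Not every pair of same-numbered libraries deviated together, which alone does not decide whether a block is needed. Their deviations from group means correlated above 0.1 in 15 of 18 tissue pairs with ammonium, in 16 of 18 with water and in 4 of 12 pairs of ammonium and water. Within ammonium the best match was the own number in 26 of 36 cases, a hint from the data that tissues of 1 experiment vary together, and between ammonium and water in 7 of 24. The tissue counts of the main fits are therefore to be read beside those with a replicate block.

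The smallest difference of pp_95532 turned positive with pseudocount 4 (0.018), library weights (1.31), edgeR (0.55), DESeq2 (0.47) and without the cortex ammonium library of experiment 3 (1.05, also without both libraries of experiment 3). Those of pp_234494, pp_198375 and pp_198382 turned positive with library weights (0.16, 0.23 and 0.18), without the root cap ammonium library of experiment 1 (0.16, 0.22 and 0.24) and without the cortex ammonium library of experiment 3 (0.44, 0.41 and 0.47, also without both libraries of experiment 3); pp_198382 was at 0.061 without the root cap ammonium library of experiment 4. Differences turned negative for pp_66035 with library weights (-0.071) and without the root cap ammonium library of experiment 4 (-0.24), for pp_104586 with library weights (-0.57) and without the cortex ammonium library of experiment 3 (-0.67, also without both), and for pp_95526 without meristem ammonium libraries 3 and 4 (-0.66) and also without cortex ammonium library 1 (-0.52). The cortex difference after ammonium of pp_137311 turned to -0.12 without the cortex ammonium library of experiment 3, alone or with the meristem library. Over these and the other named transcripts, 638 alternative values of the smallest difference kept direction and side of the threshold, 26 turned and 12 came past it. Without 1 library, the smallest difference ranged from -1.48 to 1.05 in pp_95532, -1.08 to 0.44 in pp_234494, -0.75 to 0.41 in pp_198375, -0.74 to 0.47 in pp_198382, -0.24 to 1.34 in pp_66035 and -0.67 to 2.64 in pp_104586, and the cortex difference of pp_137311 from -0.12 to 2.69.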
